A study of Homo sapiens and Mus musculus with 24 samples.

Results

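The genes described here are 7 genes of hyaluronan metabolism in mouse cancer-associated fibroblasts (CAFs): the synthases Has1, Has2 and Has3, the degrading genes Cemip, Hyal1 and Hyal2, and Hmmr, which encodes a hyaluronan-binding protein also called RHAMM. They are 7 of the 39089 genes in the fibroblast table. They were chosen by name with their values in these same libraries already known. Their levels and differences are therefore given as a description with no test. Tests are given for other genes of hyaluronan metabolism, for a list of cell cycle genes and over all genes. Those lists were also chosen with earlier results of these data known, so their adjusted p-values are not independent support.

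Hyaluronan is a long, unbranched polymer of glucuronic acid and N-acetylglucosamine that synthases in the plasma membrane build from nucleotide sugars and push out into the matrix. Fibroblasts are a main source of it in connective tissue and in tumour stroma. Cemip is the protein behind much of the hyaluronan breakdown of human skin fibroblasts, Hyal2 is anchored at the cell surface, and Hyal1 cuts the chains further in lysosomes.

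Total RNA of cultured fibroblasts was sequenced in 5 groups of 2 libraries, and the labels state 2 biological replicates per treatment without saying whether they came from separate animals. P-values therefore measure the spread between these libraries, which may be partly technical, and may not cover that between animals. Over genes with enough reads, the variance between the 2 libraries of a group averaged 1.40 to 1.68 times that from counting reads alone. All groups are labelled as stroma of genotype WT, isolated from mice whose genotype includes Trp53PC-/-, and neither PC nor ADT is spelled out in the labels. The first group received enzalutamide, an antiandrogen, at 1 µM. The second received the cytokine TGF-β1 at 5 ng/ml. The third is labelled with both agents at these doses. The fourth came from ADT mice, was untreated and is labelled day 0. The last group received the vehicle DMSO, and it and the 3 treated groups are labelled day 7. For the ADT mice the mouse, the time in culture and the lack of vehicle therefore cannot be told apart. A further pair of columns labelled as Sox4-overexpressing was left out, because over the 6322 and 6361 genes above 20 TPM their values were a median 0.918 and 0.919 of the matching ADT columns and in no gene above them.

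Values are TPM, read counts scaled by gene length and by library total. Whole reads could be recovered behind them, and the libraries held 17544830 to 21083214 reads on genes. Between 11 and 12 of 12 fibroblast markers were present (at least 1 TPM in both libraries) in every group. Some features of the table bear on what follows. The libraries labelled with both agents were about as close to those of the ADT mice (Pearson r of log2 values 0.991 to 0.992) as replicates were to each other (0.989 to 0.992), whereas they had r of 0.902 to 0.903 with the DMSO libraries, so every value of that label is given with the doubt that the label may not describe the cells. Trp53 itself, which was picked for this check after its values were seen, had 137 and 144 TPM in enzalutamide, 146 and 143 TPM in TGF-β1, 5.67 and 6.65 TPM in both-agent, 5.31 and 6.5 TPM in ADT and 134 and 134 TPM in DMSO libraries, which splits the groups in the same way. The part of Trp53 in the levels of the 7 genes was not tested. In the DMSO columns the values of at least 48 genes moved in steps of 0.3 of a read. None of the 7 genes and none of the other hyaluronan genes is among them.

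Has2, the main hyaluronan synthase of fibroblasts, was the most abundant synthase in every library and stood highest under TGF-β1. It had 73.8 and 77.2 TPM in enzalutamide libraries, 338 and 335 TPM in TGF-β1 libraries, 132.5 and 132.8 TPM in both-agent libraries, 131 and 135 TPM in ADT libraries and 109.6 and 107.7 TPM in DMSO libraries. The TGF-β1 libraries stood above and the enzalutamide libraries below all others, and the both-agent and ADT libraries overlapped each other and lay above DMSO. TGF-β1 libraries thus averaged 3.10 times the DMSO level (95% interval for counting error alone 3.0 to 3.19), and enzalutamide libraries were 1.44-fold lower (1.38 to 1.5). Both-agent libraries averaged 1.22 times DMSO (1.18 to 1.26), and ADT libraries also 1.22 times (1.18 to 1.26). The both-agent level was 0.394 of the level under TGF-β1 alone. Has2os, the RNA annotated antisense to Has2, had 3 and 4 reads in enzalutamide, 17 and 15 in TGF-β1, 5 and 11 in both-agent, 6 and 7 in ADT and 9 and 4 in DMSO libraries. The labels do not say whether strand was used in counting, so reads of the 2 genes cannot be told apart where they overlap, but Has2 itself held 1927 to 8567 reads.

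Has1, a synthase that is usually scarce and inducible, was the second most abundant. It had 9.0 and 8.52 TPM in enzalutamide libraries, 8.55 and 8.22 TPM in TGF-β1 libraries, 2.75 and 2.56 TPM in both-agent libraries, 2.57 and 2.90 TPM in ADT libraries and 7.98 and 7.34 TPM in DMSO libraries. The both-agent and ADT libraries overlapped each other below all others, by 2.88-fold (2.58 to 3.22) and 2.80-fold (2.51 to 3.13) against DMSO. Enzalutamide and TGF-β1 libraries overlapped each other just above DMSO, at 1.14 times (1.05 to 1.24) and 1.095 times (1.005 to 1.19) its level. Has3, the synthase known for shorter chains, was close to the limit of detection with 9 to 27 reads per library. It had 0.499 and 0.522 TPM in enzalutamide, 0.466 and 0.660 TPM in TGF-β1, 0.171 and 0.257 TPM in both-agent, 0.236 and 0.290 TPM in ADT and 0.537 and 0.377 TPM in DMSO libraries. Its both-agent and ADT libraries lay below the other 6, and the enzalutamide and TGF-β1 libraries overlapped with DMSO. Has3 is the member that did not pass the filter of at least 1 TPM in 2 libraries.

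**Figure D1:**
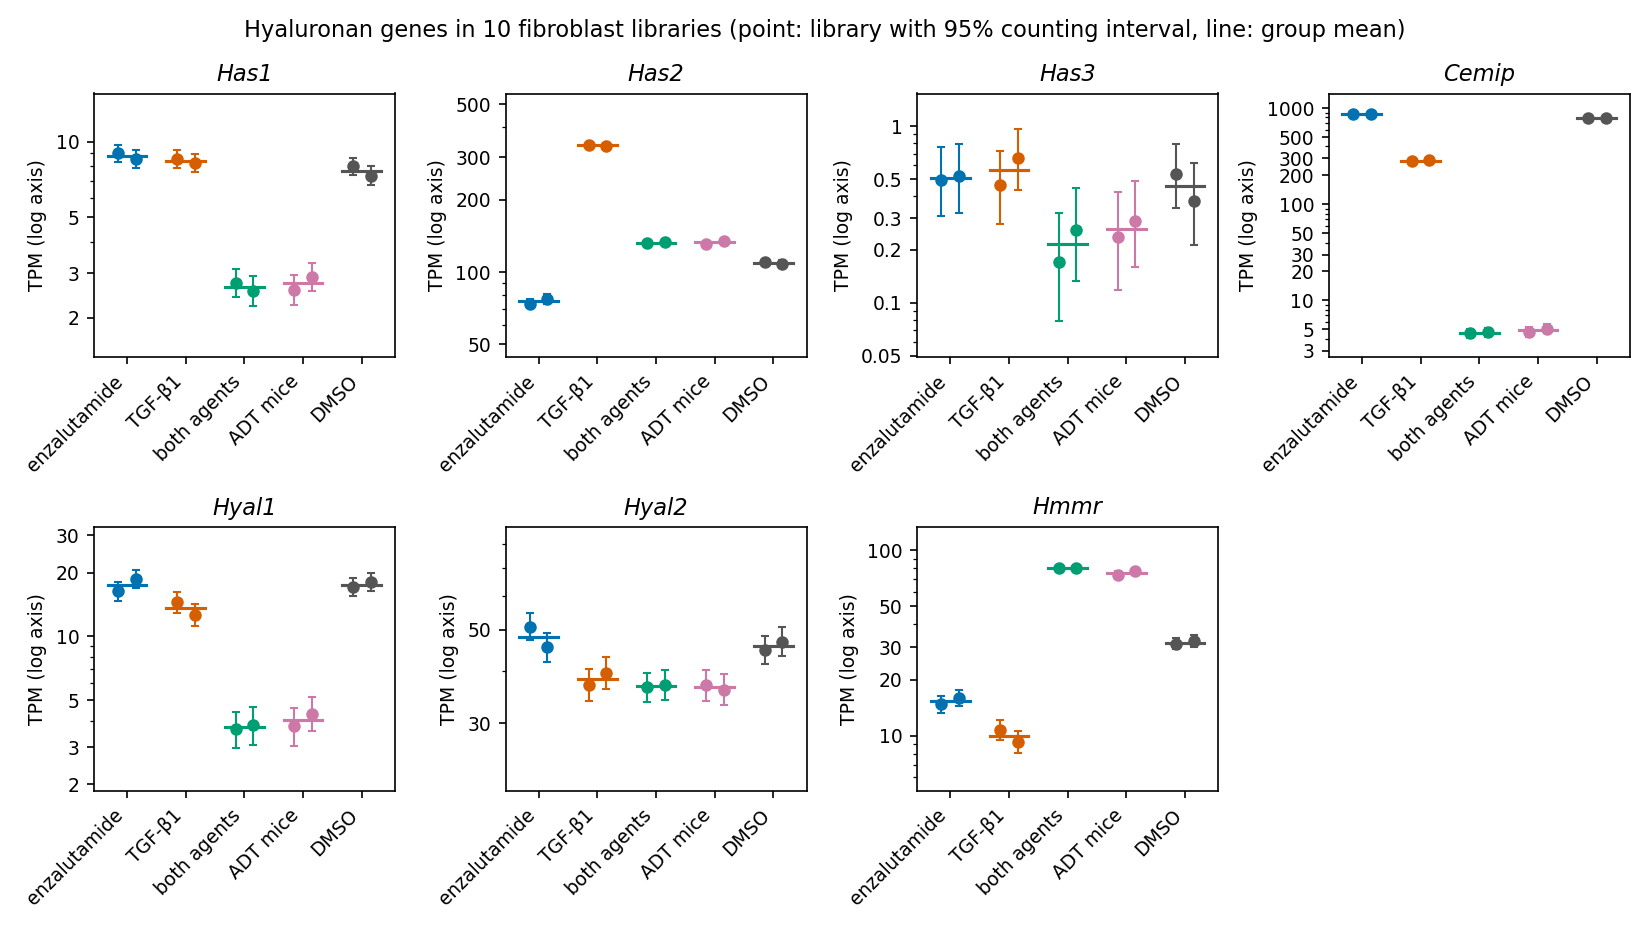
TPM (log axis, a range of its own for each gene) of the 7 genes in each of 10 fibroblast libraries by group; points are libraries with exact 95% Poisson intervals for counting error and lines are group means of 2 libraries. Cemip spans 4.57 to 880.3 TPM, Has2 is highest under TGF-β1 at 335 and 338 TPM, and Hmmr is highest in the both-agent and ADT libraries.

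Cemip showed the widest range of the 7 genes. It had 877 and 880.3 TPM in enzalutamide libraries, 281 and 286 TPM in TGF-β1 libraries, 4.57 and 4.65 TPM in both-agent libraries, 4.69 and 5.07 TPM in ADT libraries and 788 and 794 TPM in DMSO libraries. The groups did not overlap anywhere in this order, although the both-agent and ADT libraries nearly met, at 4.65 and 4.69 TPM. In the DMSO libraries Cemip ranked 177 and 173 among all genes by TPM, and in the both-agent libraries 10229 and 10177. The both-agent level was 171.5-fold lower than DMSO (158 to 186) and the ADT level 162-fold lower (149.5 to 176), from 603 and 610 reads against 87932. On the log2(TPM + 1) scale these differences were -7.14 and -7.07, and in each of these comparisons only 2 of the 14828 genes tested had a lower value. TGF-β1 libraries were 2.79-fold lower than DMSO (2.75 to 2.83), and enzalutamide libraries stood at 1.11 times DMSO (1.10 to 1.12).

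Hyal1 fell into the same division at a lower level, with 16.4 and 18.7 TPM in enzalutamide, 14.5 and 12.6 TPM in TGF-β1, 3.64 and 3.80 TPM in both-agent, 3.76 and 4.32 TPM in ADT and 17.1 and 18.1 TPM in DMSO libraries. The both-agent libraries were 4.73-fold lower than DMSO (4.05 to 5.55), the ADT libraries 4.35-fold lower (3.73 to 5.08) and the TGF-β1 libraries 1.30-fold lower (1.17 to 1.44), while the enzalutamide libraries overlapped with DMSO. Hyal2 varied least of the 7. It had 50.9 and 45.5 TPM in enzalutamide, 37.0 and 39.5 TPM in TGF-β1, 36.5 and 37.1 TPM in both-agent, 37.0 and 36.1 TPM in ADT and 44.8 and 46.9 TPM in DMSO libraries. The TGF-β1 and ADT libraries each overlapped with the both-agent libraries, and the TGF-β1 libraries lay just above the ADT libraries, by 1.05-fold. All 3 groups lay between 1.20- and 1.25-fold below DMSO, and the enzalutamide libraries overlapped with DMSO. Hyal3, a further hyaluronidase gene of the same cluster, stayed under 1 TPM in every library.

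Set against each other per length, the 3 synthases and the degrading genes Cemip, Hyal1 and Hyal2 changed places between groups. The summed TPM of Cemip, Hyal1 and Hyal2 was 11.3 and 10.9 times that of the 3 synthases in enzalutamide libraries, 0.958 and 0.983 times in TGF-β1 libraries, 0.33 and 0.336 times in both-agent libraries, 0.34 and 0.33 times in ADT libraries and 7.20 and 7.44 times in DMSO libraries. Has2 made up 88.6% to 97.9% of the synthase sum in every library. Cemip made up 92.9% and 93.2% of the degrading sum in enzalutamide, 84.5% and 84.5% in TGF-β1, 10.2% and 10.2% in both-agent, 10.3% and 11.2% in ADT and 92.7% and 92.4% in DMSO libraries. Of these 3 degrading genes, the one with the highest level was therefore Hyal2 in both-agent and ADT libraries and Cemip in the other 6. Cemip2, a relative of Cemip taken with the other hyaluronan genes below, is not in these sums. It stood above Hyal2 in both-agent libraries, at 40.6 to 42.9 TPM, and in ADT libraries, at 39.3 to 39.4 TPM. Under TGF-β1 it had 58.1 to 58.3 TPM. There the synthase sums were 347.5 and 343.5 TPM and the degrading sums 332.8 and 337.7 TPM, so their order depends on leaving Cemip2 out. These are RNA levels, and neither enzyme activity nor hyaluronan was measured in the files used here.

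**Figure D2:**
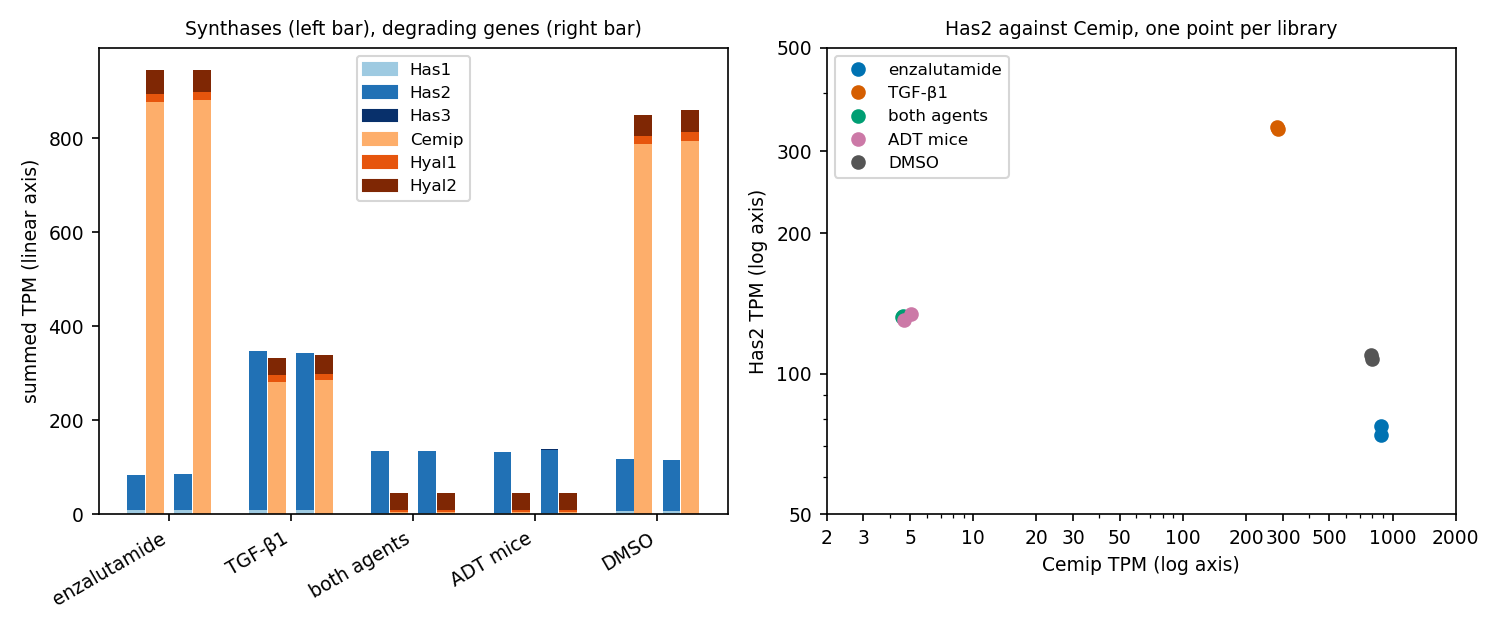
Left, summed TPM (linear axis from 0) of the 3 synthases (left bar of each pair) and of Cemip, Hyal1 and Hyal2 (right bar), with a pair of bars per library; right, Has2 against Cemip TPM on log axes, a point per library. The degrading bars reach 944 and 945 TPM in enzalutamide and 849.9 and 859 TPM in DMSO libraries against 44.7 to 45.5 TPM in both-agent and ADT libraries, and the TGF-β1 libraries stand alone at high Has2 and intermediate Cemip.

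Hmmr, whose product binds hyaluronan and the mitotic spindle and whose RNA is highest in dividing cells, ran with cell cycle genes. It had 14.8 and 16.0 TPM in enzalutamide libraries, 10.8 and 9.25 TPM in TGF-β1 libraries, 80.4 and 80.1 TPM in both-agent libraries, 73.8 and 77.3 TPM in ADT libraries and 31.4 and 32.4 TPM in DMSO libraries. No groups overlapped, with TGF-β1 lowest, then enzalutamide, DMSO, ADT and both agents. Against DMSO the both-agent libraries stood at 2.52 times (2.38 to 2.67) and the ADT libraries at 2.37 times (2.24 to 2.52), whereas enzalutamide libraries were 2.07-fold lower (1.89 to 2.26) and TGF-β1 libraries 3.18-fold lower (2.86 to 3.53). Mki67, the proliferation antigen Ki-67, had 23.2 and 23.1 TPM in enzalutamide, 18.2 and 16.2 TPM in TGF-β1, 135 and 138 TPM in both-agent, 137 and 139.7 TPM in ADT and 47.4 and 46.4 TPM in DMSO libraries. Top2a, the topoisomerase of dividing cells, had 46.8 and 44.2 TPM in enzalutamide, 30.3 and 32.1 TPM in TGF-β1, 292 and 286 TPM in both-agent, 288 and 297 TPM in ADT and 83.5 and 80.01 TPM in DMSO libraries. Both genes had the order of Hmmr for every group except that the both-agent and ADT libraries overlapped. A list of 26 cell cycle genes, chosen with earlier results known, was tested with limma on log2(TPM + 1) with Benjamini-Hochberg adjustment. Under enzalutamide 1 was higher and 22 lower, where 9.83% of all genes tested were called higher and 15.2% lower. Under TGF-β1 1 was higher and 24 lower, where 19% and 34.6% were. All 26 were higher in both-agent libraries and all 26 were higher in ADT libraries, against DMSO. In each of these comparisons 31.5% of all genes tested were called higher. The median log2 difference of the list was -0.83 under enzalutamide, beside -0.012 over all genes tested, -1.28 under TGF-β1, beside -0.099, 1.6 in both-agent libraries, beside -0.126, and 1.63 in ADT libraries, beside -0.133.

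**Figure D3:**
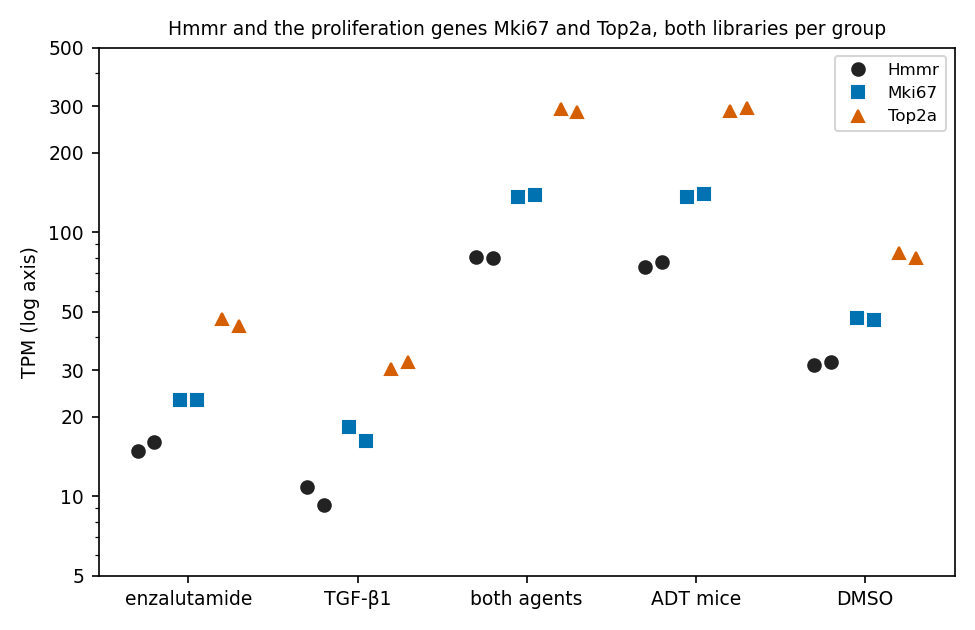
TPM (log axis) of Hmmr, Mki67 and Top2a in both libraries of each group. All 3 genes are below the DMSO libraries under enzalutamide and TGF-β1 and above them in the both-agent and ADT libraries.

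Counted together, 2 of the 7 genes had both enzalutamide libraries above both DMSO libraries (Has1, Cemip) and 2 had them below (Has2, Hmmr), where 62.3% of the genes tested had groups that did not overlap. Under TGF-β1, 2 lay above DMSO (Has1, Has2) and 4 below (Cemip, Hyal1, Hyal2, Hmmr), where 76% of the genes tested did not overlap. In both-agent libraries 2 lay above DMSO (Has2, Hmmr) and the other 5 below, where 86.4% did not overlap. In ADT libraries the division was again 2 above (Has2, Hmmr) and 5 below, where 86.4% did not overlap. All 4 comparisons share the DMSO libraries. Between both-agent and ADT libraries, which share none, Hmmr lay 1.06-fold above, Cemip 1.06-fold below and the other 5 overlapped, where 37.5% of the genes tested did not overlap. The genes were chosen on these contrasts, so nothing is read from these counts.

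Over all 14828 genes tested with limma at an adjusted p under 0.05, 9.83% were called higher and 15.2% lower under enzalutamide, 19% higher and 34.6% lower under TGF-β1, 31.5% higher and 42.7% lower in both-agent libraries and 31.5% higher and 43.3% lower in ADT libraries. Of the 7953 genes called under TGF-β1, 35.4% were higher, and 49.1% were once the libraries were rescaled by median-of-ratios size factors. The same rescaling took the share called higher to 49.6% in both-agent libraries in place of 42.45%, and to 49.8% in ADT libraries in place of 42.1%. That rescaling moved the median of all genes by 0.084 under TGF-β1, by 0.112 in both-agent and by 0.121 in ADT libraries on the log2 scale, and by 0.008 under enzalutamide. With it, Has2 stood 0.42 and 0.43 above DMSO in both-agent and ADT libraries in place of 0.29 and 0.29, and Hyal2 stood at -0.18 and -0.18 in place of -0.31 and -0.32. Under TGF-β1, Hyal2 stood at -0.16 in place of -0.25 and Has1 at 0.20 in place of 0.12. None of the 6 members past the filter changed sign where its groups did not overlap, and Has3 was not rescaled.

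The other genes of hyaluronan metabolism comprised 42 listed names of receptors, matrix binders, sugar-precursor enzymes and further degrading enzymes. Of these, 41 were in the table, 25 passed the filter and 16 did not. The 16 were Lyve1, Stab2, Ncan, Hapln1, Hapln2, Itih1, Itih3, Itih4, Itih5, Ambp, Habp2, Hyal3, Hyal4, Hyal5, Hyal6 and Spam1, none above 0.978 TPM in any library. Acan passed through the both-agent and ADT libraries alone and Bcan through the TGF-β1 libraries and 1 enzalutamide library. Hapln3 passed through 1 enzalutamide (1.10 TPM), 1 TGF-β1 (1.05 TPM) and 1 DMSO library (1.08 TPM). It had 0.278 to 0.494 TPM in both-agent and ADT libraries. A difference was thus built into the selection of these 3 genes. They stay in the counts below, but no adjusted p is given for them. The calls of these genes below come from the limma fit over all genes, with adjusted p-values.

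Under enzalutamide 5 of the 25 genes rose, 3 fell and 17 did not pass, with a median log2 difference of 0.02 against -0.012 over all genes. Of all genes tested, 9.83% were called higher and 15.2% lower. Cd44, the main hyaluronan receptor, had 271 and 275 TPM in enzalutamide against 212 and 219.7 TPM in DMSO libraries (log2 0.34, SE 0.0267, adjusted p = 6.8e-05). Ugdh, which makes the UDP-glucuronic acid used by the synthases, rose 1.23-fold (log2 0.30, adjusted p = 0.0014), and Pgm3, an enzyme of the UDP-N-acetylglucosamine route, 1.21-fold (log2 0.27, adjusted p = 0.0031). Habp4, an intracellular hyaluronan- and RNA-binding protein, rose 1.31-fold (log2 0.38, adjusted p = 0.0070). Ugp2, which makes UDP-glucose for Ugdh, fell 1.37-fold (log2 -0.45, adjusted p = 2.4e-05). Gfpt2, an isoform of the first enzyme of the hexosamine route, fell 1.33-fold to 28.6 and 30.7 TPM, against 41.1 and 37.6 TPM in DMSO libraries (log2 -0.40, adjusted p = 0.0013). The remaining 2 calls, Vcan (log2 0.14, adjusted p = 0.038) and Hexa (log2 -0.16, adjusted p = 0.022), were lost in other fits. The adjusted p of Vcan was 0.08 without enzalutamide replicate 1, 0.16 without enzalutamide replicate 2, 0.053 without either both-agent library and 0.19 without DMSO replicate 2. It was 0.067 with no filter, 0.057 with a replicate block and 0.054 without both both-agent libraries. That of Hexa was 0.12 without enzalutamide replicate 2, 0.10 without DMSO replicate 1 and 0.063 without DMSO replicate 2. Tnfaip6, which ties hyaluronan to inter-alpha-inhibitor heavy chains, had 1.42 and 0.425 TPM in enzalutamide and 1.43 and 0.967 TPM in DMSO libraries.

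Under TGF-β1 11 genes rose (Bcan among them), 10 fell and 4 did not pass, with a median log2 difference of 0.18 against -0.099. Of all genes tested, 19% were called higher and 34.6% lower. Of the 7 precursor enzymes 6 rose and 1 fell. Gfpt2 had 82.8 and 82.4 TPM in TGF-β1 against 41.1 and 37.6 TPM in DMSO libraries, 2.10-fold higher (log2 1.05, SE 0.0546, adjusted p = 1.5e-06). Pgm3 (log2 0.70), Gfpt1 (0.51), Gnpnat1 (0.49), Uap1 (0.41) and Ugdh (0.33) also rose, with adjusted p between 3.9e-06 and 3.5e-04, and Ugp2 fell (log2 -0.63, adjusted p = 8.6e-07). These enzymes supply the same nucleotide sugars to other glycans, so their levels do not speak of hyaluronan alone. Among receptors Cd44 rose to 362 and 365.5 TPM, against 212 and 219.7 TPM in DMSO libraries (log2 0.75, adjusted p = 1.8e-07). Layn, a lectin that binds hyaluronan (log2 -0.73), Tlr2 (-0.74) and Tlr4 (-0.60), the innate receptors linked to its fragments, fell, with adjusted p between 5.8e-06 and 3.0e-04. Stab1, a scavenger receptor, was called higher (log2 0.41, adjusted p = 0.029) at 1.32 and 1.85 TPM in TGF-β1 and 0.820 and 1.07 TPM in DMSO libraries, a call lost with no filter (adjusted p = 0.068) and without TGF-β1 replicate 2 (adjusted p = 0.17) or DMSO replicate 1 (adjusted p = 0.14).

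Among matrix binders under TGF-β1, Ptx3, a pentraxin that helps to cross-link hyaluronan matrices, fell to 67.6 and 76.5 TPM, against 536 and 531 TPM in DMSO libraries, 7.40-fold lower (log2 -2.87, SE 0.0529, adjusted p = 5.4e-09). Itih2, a heavy chain of inter-alpha-inhibitor, fell 2.17-fold (log2 -0.91, adjusted p = 0.0012), and Vcan, the large hyaluronan-binding proteoglycan versican, fell 1.18-fold (log2 -0.23, adjusted p = 0.0014). Bcan, brevican, had 4.88 and 4.45 TPM in TGF-β1 against 0.834 and 0.966 TPM in DMSO libraries, a log2 difference of 1.57 with no test given, and the link protein gene Hapln4 rose 2.27-fold (log2 0.96, adjusted p = 3.1e-04). Tnfaip6 did not pass, at 1.99 and 1.77 TPM in TGF-β1 and 1.43 and 0.967 TPM in DMSO libraries (log2 0.40, adjusted p = 0.18). Of the further degrading enzymes Cemip2, a relative of Cemip, rose (log2 0.59, adjusted p = 5.6e-06), while the lysosomal glycosidases Hexa (log2 -0.65, adjusted p = 3.3e-06) and Gusb (log2 -0.27, adjusted p = 7.7e-04) fell.

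In both-agent libraries 12 genes rose (Acan among them), 12 fell (Bcan and Hapln3 among them) and 1 did not pass against DMSO. The median log2 was 0.00 against -0.126 over all genes, of which 31.5% were called higher and 42.7% lower. In ADT libraries 11 rose (Acan among them), 13 fell (Bcan and Hapln3 among them) and 1 did not pass. The median was -0.16 against -0.133 over all genes, of which 31.5% were called higher and 43.3% lower. With median-of-ratios scaling 13 rose and 10 fell in both-agent libraries, and 12 rose and 10 fell in ADT libraries. Ptx3 fell to 21.4 and 20.9 TPM in both-agent and 20.7 and 19.8 TPM in ADT libraries, against 536 and 531 TPM in DMSO libraries (log2 -4.59 and -4.65, adjusted p = 1.2e-10 and 1.1e-10). Tlr4 fell 3.69-fold in both-agent and 3.61-fold in ADT libraries (log2 -1.70 and -1.68, adjusted p = 2.1e-07 and 2.2e-07). Tnfaip6 rose to 10.5 and 10.4 TPM in both-agent and 9.98 and 10.9 TPM in ADT libraries, against 1.43 and 0.967 TPM in DMSO libraries (log2 2.39 in each, SE 0.226, adjusted p = 2.1e-05). Stab1 rose to 8.92 and 9.80 TPM in both-agent and 9.38 and 9.02 TPM in ADT libraries, against 0.820 and 1.07 TPM in DMSO libraries (log2 2.41 and 2.39, adjusted p = 5.9e-07 and 6.1e-07). Vcan rose 1.95-fold in both-agent and 1.83-fold in ADT libraries (log2 0.96 and 0.86, adjusted p = 1.3e-07 and 2.3e-07).

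Acan, aggrecan, had 2.03 and 1.48 TPM in both-agent and 2.03 and 2.09 TPM in ADT libraries, against 0.119 and 0.0890 TPM in DMSO libraries, log2 differences of 1.31 and 1.47 with no test given. Hapln4 rose (log2 1.33 in both-agent libraries, adjusted p = 2.0e-05) and Itih2 fell (log2 -1.38 in ADT libraries, adjusted p = 5.0e-05). Of the precursor enzymes 4 rose and 3 fell in each comparison. Gfpt2 rose to 64.0 and 59.7 TPM in both-agent and 64.5 and 63.8 TPM in ADT libraries, against 41.1 and 37.6 TPM in DMSO libraries (log2 0.64 and 0.69, adjusted p = 1.1e-05 and 6.4e-06), and Ugdh rose by 0.32 and 0.23 on the log2 scale (adjusted p = 1.6e-04 and 0.0010). Cd44 rose by 0.18 in both-agent libraries (adjusted p = 3.5e-04). Its rise of 0.10 in ADT libraries (adjusted p = 0.011) was lost without ADT replicate 2 (adjusted p = 0.07) or DMSO replicate 1 (adjusted p = 0.075).

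**Figure D4:**
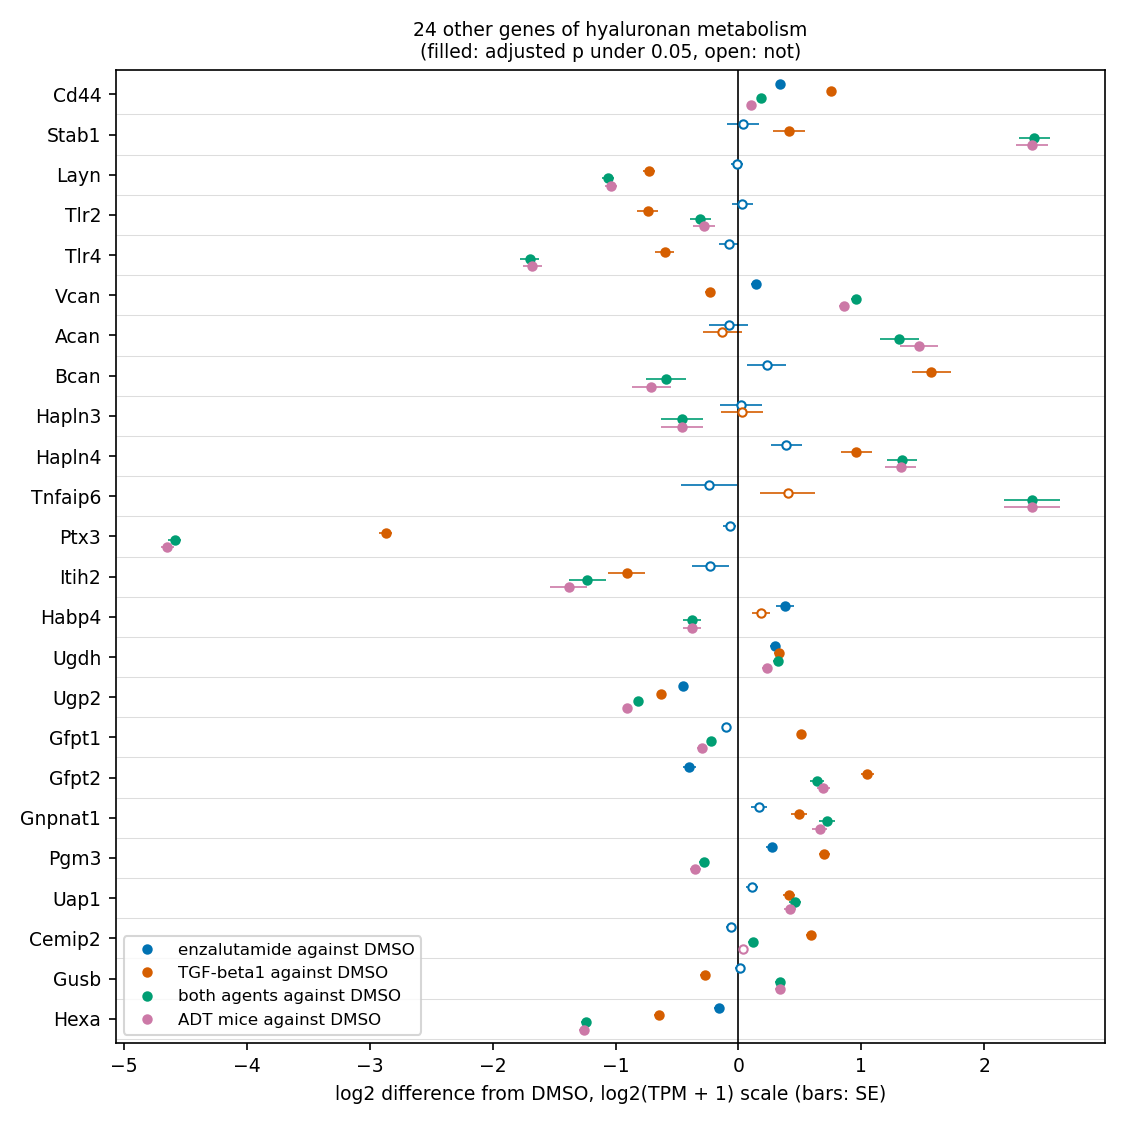
Log2 difference from DMSO on the log2(TPM + 1) scale, with SE, of 24 of the 25 other hyaluronan genes that passed the filter, by comparison; filled points have an adjusted p under 0.05 in limma and open points do not, with Acan, Bcan and Hapln3 shown although the filter passed them through the groups where they are high. Ptx3 lies furthest left, at -4.65 in ADT libraries and -2.87 under TGF-β1, and Stab1 and Tnfaip6 furthest right, at 2.39 to 2.41 in both-agent and ADT libraries.

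Set directly against the ADT libraries, few genes of the both-agent libraries passed the threshold. The variance between libraries of these groups averaged 1.84 to 2.61 times that from counting reads alone. It was 1.65 times within the both-agent and 1.68 times within the ADT libraries, so the groups differed slightly more than their replicates did. limma called 2 of 14828 genes higher (0.0135%) and 0 lower (0%), with 1220 genes at an unadjusted p under 0.05. The 2 genes, named after their values were seen, were the microRNA precursors Mir7041, with 2.50 and 2.82 TPM in both-agent libraries and listed at 0 in both ADT libraries, and Mir7050, with 2.16 and 2.44 TPM in both-agent libraries and listed at 0 in both ADT libraries. Within this comparison they reached the filter through the both-agent libraries alone. The number of reads behind them is not given here, so nothing is read from these 2 calls. Of the 25 other hyaluronan genes limma called 0 in either direction, with 4 at an unadjusted p under 0.05. Cd44 had 249 and 240.5 TPM in both-agent against 228 and 234 TPM in ADT libraries (log2 0.08, adjusted p = 0.52), and Vcan 161.5 and 157 TPM in both-agent against 145 and 154 TPM in ADT libraries (log2 0.09, adjusted p = 0.60).

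Summed leukocyte, endothelial and pericyte and muscle markers were lower in both-agent and ADT libraries than in the others. Summed epithelial markers were higher. Single markers did not all follow. Cspg4 of the pericyte and muscle list lay above DMSO in both-agent and ADT libraries and the other 5 below. Of the endothelial list 1 lay above DMSO in ADT libraries and 5 below. In DMSO libraries Krt19 (18.7 TPM), Emcn (10.2 TPM) and Cnn1 (963 TPM) carried most of the epithelial, endothelial, and pericyte and muscle sums. In bulk RNA, fewer cells of a type and less RNA per cell cannot be told apart. The summed TPM of 8 leukocyte markers was 81.4 to 89.0 in enzalutamide, 83.2 to 87.7 in TGF-β1, 6.17 to 8.54 in both-agent, 9.27 to 11.3 in ADT and 96.2 to 96.8 in DMSO libraries, with 6 of 8 present in enzalutamide, TGF-β1 and DMSO libraries and 3 of 8 in the others. Ptprc, the defining leukocyte marker, reached at most 0.381 TPM in any library, and Lyz2 carried most of the sum, at 67.2 ± 5.47 TPM in enzalutamide, 70.7 ± 1.75 TPM in TGF-β1, 2.81 ± 1.71 TPM in both-agent, 4.04 ± 0.963 TPM in ADT and 80.1 ± 2.62 TPM in DMSO libraries (SD, n = 2 each). Of 6 endothelial markers 1 was present in enzalutamide, 2 in TGF-β1, 0 in both-agent, 0 in ADT and 2 in DMSO libraries, and their sum was 8.81 to 9.71 TPM in enzalutamide, 10.6 to 10.7 TPM in TGF-β1, 0.817 to 0.874 TPM in both-agent, 0.858 to 1.2 TPM in ADT and 13.1 to 14.5 TPM in DMSO libraries. The sum of 6 pericyte and muscle markers was 1138 to 1149 TPM in enzalutamide, 1254 to 1269 TPM in TGF-β1, 462.6 to 463.2 TPM in both-agent, 471 to 475 TPM in ADT and 1152 to 1163 TPM in DMSO libraries, with 4 to 6 of 6 present. The sum of 8 epithelial markers was 15.1 to 16.3 TPM in enzalutamide, 9.25 to 11.5 TPM in TGF-β1, 28.3 to 29.7 TPM in both-agent, 25.7 to 26.3 TPM in ADT and 19.5 to 19.9 TPM in DMSO libraries, with 1 or 2 of 8 present and Epcam and Cdh1 under 1 TPM throughout. The part of these cells in the levels of Cemip, Has1 and Hyal1 was not tested.

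Over the 10 libraries, the genes whose log2(TPM + 1) followed each member most closely are given as a description, since the libraries form 5 pairs of which the both-agent and ADT pairs nearly coincide. Closest to Cemip were Prelp (Pearson r = 0.9996), Amotl2 (0.9994) and Rsu1 (0.9994). Prelp, a small leucine-rich matrix proteoglycan, averaged 76.1 TPM in enzalutamide, 33.0 TPM in TGF-β1, 0.134 TPM in both-agent, 0.140 TPM in ADT and 70.3 TPM in DMSO libraries. Closest to Has2 were Adamts12, a secreted metalloproteinase (0.9936), Arcn1 (0.9936) and Zmiz1 (0.9924). Adamts12 averaged 14.9 TPM in enzalutamide, 45.6 TPM in TGF-β1, 22.4 TPM in both-agent, 21.3 TPM in ADT and 18.1 TPM in DMSO libraries, whereas Arcn1 and Zmiz1 kept the order of the groups over a narrower range. Closest to Has1 were the neurotrophin gene Bdnf (0.9986), the p53 target Mdm2 (0.9979) and the macrophage growth factor gene Csf1 (0.9978). Mdm2 averaged 132 TPM in enzalutamide, 126 TPM in TGF-β1, 29.9 TPM in both-agent, 29.7 TPM in ADT and 118 TPM in DMSO libraries. Among the closest to Hyal1 were Pear1 (0.9987) and Nucb1 (0.9986), and closest to Hyal2 were Ttc38 (0.974), Plekhf1 (0.972) and Arhgef3 (0.969). Closest to Hmmr were the cell cycle genes Ccnf (0.9989), Nusap1 (0.9982) and Ect2 (0.9973). Has3 was left out of this ranking because no group reached a mean of 1 TPM.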

How the data were processed

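Mouse fibroblast RNA from 12 libraries was sequenced and 10 were used here. The 12 columns of the LNCaP table, human prostate cancer cells, were not used. Per the file headers the deposited values are TPM per gene symbol. The submitters' processing notes name HISAT2, HTSeq, DESeq2 and the build mm10 without saying which step each served, and versions are not given in the sources used here. RNA was extracted with Trizol and libraries were made with a NEBNext Ultra kit, per the labels' protocols.

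Within a library the TPM of a gene rise in whole steps, so reads were recovered for 18813 genes, which held at least 99.9% of each library's TPM, with a tolerance of 0.02 of a read. All 7 genes were solved. Depth set the intervals, which are exact, at 95%, and cover counting error alone. TPM values that rest on 0.3-read steps were found by comparing the steps of the DMSO columns with those of the other 8.

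Tests used limma 3.58.1 in R 4.3.3 with a mean-variance trend on log2(TPM + 1), 1 fit over the 5 groups with 5 residual degrees of freedom, genes with at least 1 TPM in at least 2 libraries, two-sided p-values and Benjamini-Hochberg adjustment over the 14828 genes at 0.05. A log2 fold on this scale understates changes of low genes. Tables were handled in Python 3.11.15 with pandas 2.3.3, numpy 2.4.6 and scipy 1.17.1.

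The 7 genes and the lists of other hyaluronan genes, cell cycle genes and cell type markers were chosen with earlier results of these data known. Genes named besides the 7 were Cd44, Vcan, Tnfaip6, Ugdh and Gfpt2, the proliferation genes Mki67 and Top2a, Acta2 and Fkbp5 as checks of the labels, in each comparison up to 6 called hyaluronan genes with the largest log2 difference whose groups did not overlap and of which 1 averaged at least 1 TPM, and for each of the 7 with a group mean of at least 1 TPM the 3 genes with the highest Pearson r over the 10 libraries. Some genes that this rule names are not reported here. Others named with values were picked after these were seen. Alternatives were a pseudocount of 0.1 TPM, no filter, median-of-ratios scaling, a replicate block, the DMSO values in 0.3-read steps divided by 0.3, the fit without the both-agent libraries and the fit without each library in turn. No gene or protein sequence is printed.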

Additional observations from a re-analysis of the deposited data

Results flagged for a closer look

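Differences between effects of 1 agent in the absence and presence of the other are listed here where the libraries moved in opposite directions without overlap in the 2 settings. None of these differences was tested, and each rests on the both-agent libraries, which resemble those of the ADT mice. Values are on the log2(TPM + 1) scale, and the difference is the effect with the other agent minus the effect without it.

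Has1, a synthase, stood at -1.36 for enzalutamide on top of TGF-β1 and 0.17 for enzalutamide alone, a difference of -1.53. The same libraries gave -1.42 for TGF-β1 on top of enzalutamide and 0.12 for TGF-β1 alone. Cemip stood at -5.66 for enzalutamide on top of TGF-β1 and 0.15 for enzalutamide alone, a difference of -5.82. Hmmr stood at 2.89 for enzalutamide on top of TGF-β1 and -1.0 alone, and at 2.31 for TGF-β1 on top of enzalutamide and -1.58 alone, a difference of 3.89 either way.

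The difference is the same for both agents by arithmetic. Among the other hyaluronan genes the opposite directions were seen for both agents in Acan, with a difference of 1.52, Bcan (-2.39), Cd44 (-0.91), Habp4 (-0.94) and Pgm3 (-1.25). For Acan the effects alone were only -0.08 for enzalutamide and -0.13 for TGF-β1, at 0.119 TPM or less in those and the DMSO libraries. For Bcan the enzalutamide and DMSO libraries barely parted, at 0.9666 and 0.9658 TPM. In Vcan they were seen for TGF-β1, which stood at 0.82 on top of enzalutamide and -0.23 alone, a difference of 1.05.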

How the results depend on the processing

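Of 288 recomputed log2 differences of the 6 genes past the filter, 0 reversed a direction in which the groups did not overlap. Has3 was not recomputed. Counts of genes called against DMSO, over all genes and over the other hyaluronan genes, stayed within 1.5 times the reported ones under every alternative. Without each library in turn, when the lone library left was assumed to vary like the other groups, the count over all genes was 2501 to 2562 for enzalutamide, against 3708 with all. For both-agent against ADT libraries the 2 genes called became 14 with no filter, 6 with a pseudocount of 0.1 TPM, 0 with a replicate block and 0 to 2 without each library in turn; it was 0 without ADT replicate 1, both-agent replicate 1 or both-agent replicate 2. The cause was not tested. Replicate numbers did not pair the libraries, since same-numbered libraries deviated from their group means with correlations of -0.028 to 0.093 over 10 pairs of groups. With the replicate block the counts against DMSO were 3521 genes and 7 of the other hyaluronan genes for enzalutamide, 7864 and 21 for TGF-β1, 10962 and 24 for both agents, and 11062 and 24 for ADT libraries. Calls lost under median-of-ratios scaling included Hapln3 in both-agent and in ADT libraries. They also included Tlr2 in both-agent (adjusted p = 0.071) and in ADT libraries (adjusted p = 0.13), by limma. Without single libraries the calls of Hapln3 and Cemip2 in both-agent libraries, and of Hapln3 and Tlr2 in ADT libraries, were lost too. The log2 difference of Cemip2 was then 0.09 without DMSO replicate 1 and 0.08 without both-agent replicate 1. The 2 libraries a group limit all tests, and 9 to 27 reads limit Has3.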

Other observations

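Other genes read as checks of the labels divided the libraries in more than 1 way. Fkbp5, a steroid-responsive gene, had 16.4 and 16.3 TPM in enzalutamide, 67.4 and 64.6 TPM in TGF-β1, 72.7 and 71.04 TPM in both-agent, 74.2 and 75.3 TPM in ADT and 19.0 and 23.0 TPM in DMSO libraries. The TGF-β1 libraries thus stood with the both-agent and ADT libraries for this gene, and apart from them for Cemip and Hmmr. Acta2, smooth muscle actin, a myofibroblast gene, had 4919 and 4885 TPM in enzalutamide, 3969.7 and 4026 TPM in TGF-β1, 1790.5 and 1798 TPM in both-agent, 1809 and 1795 TPM in ADT and 5432 and 5343 TPM in DMSO libraries, so its both-agent and ADT libraries were again lowest and overlapped.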
